A study of Rattus norvegicus with 12 samples.

Results

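Smooth muscle and pericyte genes of the rat corpus luteum (CL) were examined as a set of 10 genes fixed by name: Acta2, Myh11, Tagln, Cnn1, Des and Myl9, which encode contractile and cytoskeletal proteins of smooth muscle, and Pdgfrb, Mcam, Rgs5 and Cspg4, which mark pericytes. Each gene was read from the probe set that carries its symbol. All 10 were measured, by 1 probe set each, among 14506 genes tested. CL RNA was compared on arrays in 4 groups of 3 Wistar rats, with 1 animal per array. The AI+E2 group received anastrozole, which blocks the aromatase step of estrogen synthesis (AI, orally at 1 mg/kg BW per day), with estradiol (E2, 10 µg per day s.c.) from day 12 of pregnancy for 4 days. The AI group received anastrozole alone and the VEH group vehicle over the same days, and CL of these 3 groups were collected on day 16. The Day 12 group was untreated and gave the levels at the start of treatment. All animals were pregnant on day 12, the drugs reached the whole animal, and each array holds the RNA of whole CL with all their cell types. The paper reports signs of lost implantation in a pilot at this AI dose and on these days. It also reports lighter CL under AI than under vehicle, with no significant difference from vehicle under AI+E2.

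Smooth muscle cells and pericytes are the mural cells of blood vessels. Smooth muscle cells wrap arteries and arterioles and contract through actin and smooth muscle myosin. Pericytes sit on capillaries, are recruited by platelet-derived growth factor B (PDGF-B) from the endothelium through its receptor PDGFRB, and stabilise the new vessel. The CL is among the most densely vascularised tissues of the adult, and its vessels form anew after each ovulation.

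Values are RMA values on the log2 scale, so that a difference of 1 is a doubling, and a probe set's level cannot be set against that of another gene. Log2 fold changes are given with the standard error (SE) of limma, and the words rose and fell are kept for an adjusted p (limma, Benjamini-Hochberg over all genes) under 0.05. The array medians lay between 6.51 and 6.56, and all 10 genes lay above the median of the array on all 12 arrays. The luteal label was checked with 7 measured luteal markers, and 7 of 7 lay above the upper quartile of each array. The same bar was passed by 7 of 11 endothelial and 7 of 12 fibroblast and matrix genes, so it does not show purity. Inha, one of the luteal markers, ranged from 8.65 to 10.62, with 9.68, 9.62 and 10.62 in AI CL. Of 7 follicle and oviduct genes 0 passed the bar on all arrays. Among them Fshr had 6.18, 6.22 and 7.07 in AI and 6.54, 5.94 and 5.64 in VEH CL.

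The highest group mean of each of the 10 genes was that of VEH. In VEH against Day 12 CL, 7 of 10 genes rose and 0 fell, where 6.91% of all genes rose and 3.23% fell. The same 7 had all VEH arrays above all Day 12 arrays, as had 12.5% of all genes. Their median log2 fold change was 0.45, against -0.02 over all genes. In AI against VEH CL, 3 of 10 fell and 0 rose, where 11% of all genes fell and 5.91% rose, and their median was -0.32, against 0.01 over all genes. All AI arrays lay below all VEH arrays for 4 of the 10 (Des, Pdgfrb, Mcam and Myl9) and for 17.2% of all genes. With E2 given back (AI+E2 against AI CL), 0 of 10 passed the test upward and 0 downward, where 8.65% of all genes rose and 4.13% fell, and the median was 0.00. In that comparison 0 of the 10 had an unadjusted p under 0.05, and the methods' t-test with Benjamini-Hochberg adjustment also called 0. In AI+E2 against VEH CL, 3 of 10 fell and 0 rose, where 6.9% of all genes fell and 6.11% rose, with a median of -0.24, and 5 of 10 lay below VEH with no overlap, as did 15.7% of all genes. These comparisons share arrays and are not independent of each other. The 10 genes were chosen with earlier results of these data known, so their counts beside the shares of all genes are a description and no test. In RNA of whole tissue, fewer mural cells and less of these RNAs per cell cannot be told apart.

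**Figure D1:**
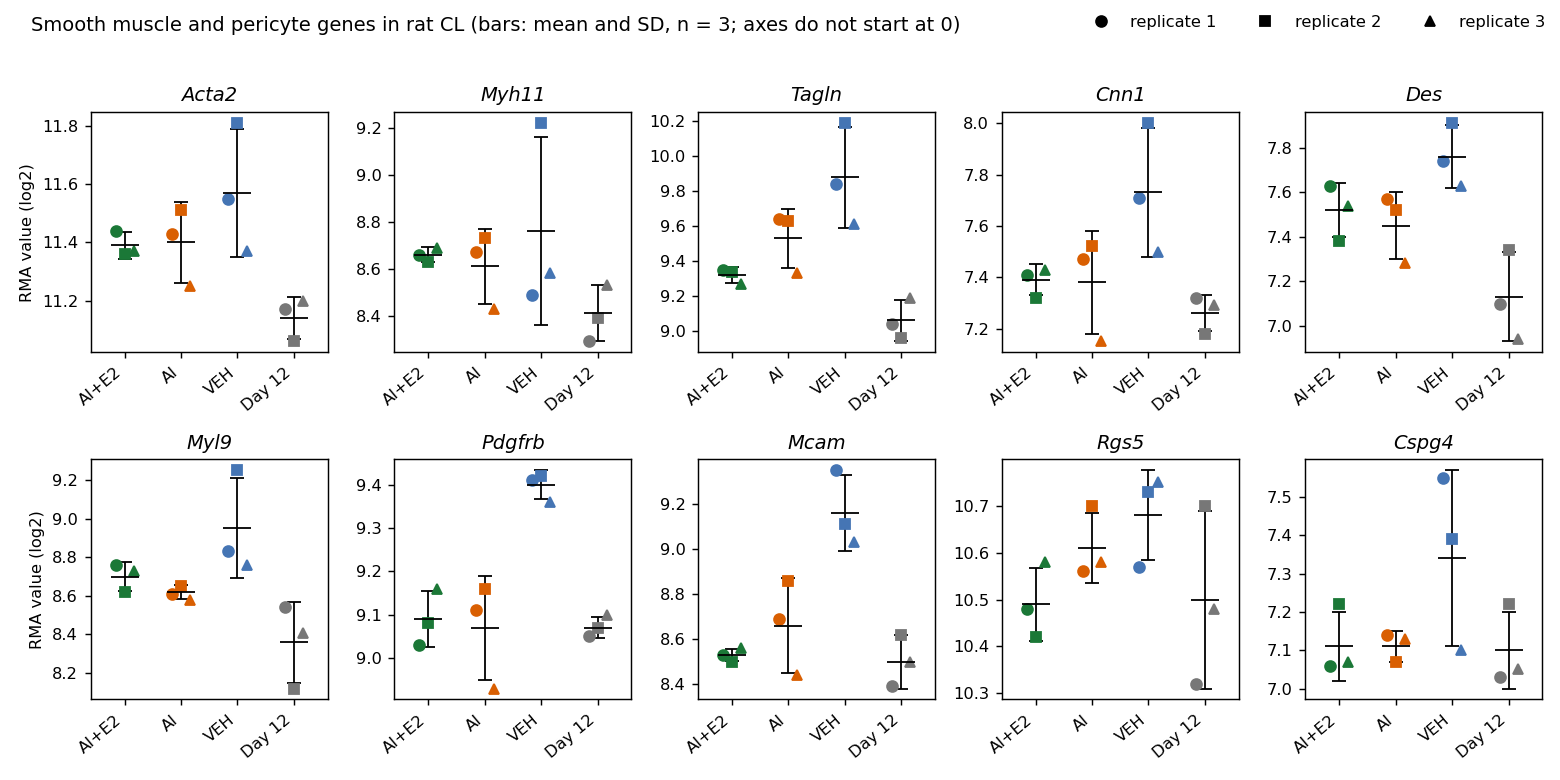
RMA values (log2, vertical axis, not starting at 0) of the 10 genes on each array, by group. Symbols mark replicates 1 to 3, and the bars give the mean and SD (n = 3). The VEH mean is the highest of the 4 in each panel, and VEH replicate 2, the square, stands above the other VEH arrays in all 6 contractile genes.

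Acta2 encodes smooth muscle alpha-actin, the actin isoform of the contractile filaments. Transcription of such genes depends on serum response factor (SRF), which binds the CArG box with its coactivator myocardin. Promoter stretches of RefSeq (build GRCr8) were found for 5 of the 10 genes, Acta2, Cnn1, Des, Rgs5 and Cspg4, each covering 250 bases before to 50 after the start. Stretches of Acta2 and Cnn1 are shown because they hold the motif matches among these 5. The first lies on chr1:241172534-241172703 (minus strand), and the second on chr8:28908197-28908256 (plus strand). Capitals mark matches to a CArG-like box, to TGGGAA and to CATTCC, on either strand.
Acta2: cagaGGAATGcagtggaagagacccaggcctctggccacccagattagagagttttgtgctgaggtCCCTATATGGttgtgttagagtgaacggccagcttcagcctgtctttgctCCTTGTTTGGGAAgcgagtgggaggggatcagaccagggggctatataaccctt
Cnn1: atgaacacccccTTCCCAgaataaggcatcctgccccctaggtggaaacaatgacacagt

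The full CArG box was found in 0 of the 5 promoters and in 1.64% of 33469 promoters searched on both strands. A CArG-like box, in which 1 letter of the core is not A or T, was searched after the data had been seen. It was found in Acta2 alone of the 5, at 134 and 84 bases before the start, and in 8.1% of all promoters. TGGGAA, a core of binding by the NOTCH mediator RBPJ, was found in Acta2 and Cnn1 and in 25.7% of all promoters. In Acta2 it overlapped the second CArG-like box, at 77 bases before the start, and in Cnn1 it lay 228 bases before the start on the opposite strand. CATTCC, the core of TEAD binding, was found in Acta2 at 196 bases before the start on the opposite strand, and in 14.2% of all promoters. The estrogen response element was found in 0 of the 5 and in 0.0269% of all promoters. These matches describe the letters of these windows and are no record of binding.

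Acta2 had 11.44, 11.36 and 11.37 in AI+E2, 11.43, 11.51 and 11.25 in AI, 11.55, 11.81 and 11.37 in VEH and 11.17, 11.06 and 11.20 in Day 12 CL. All 9 arrays of day 16 lay above those of day 12, while the treated groups overlapped each other. Acta2 rose in VEH against Day 12 CL by 0.43 on the log2 scale (SE 0.096, adjusted p = 0.0089). It differed by -0.18 in AI against VEH (95% interval -0.38 to 0.03) and by -0.01 in AI+E2 against AI CL (-0.21 to 0.20), and neither passed the test.

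Tagln encodes transgelin, an actin-binding protein that is abundant in smooth muscle. Its values were 9.35, 9.34 and 9.27 in AI+E2, 9.64, 9.63 and 9.33 in AI, 9.84, 10.19 and 9.61 in VEH and 9.04, 8.96 and 9.19 in Day 12 CL. The AI+E2 arrays lay below all VEH arrays, and the lowest AI array lay among those of AI+E2. Tagln had the largest rise of the set in VEH against Day 12 CL, 0.81 (SE 0.12, adjusted p = 0.000387). It fell in AI+E2 against VEH CL (-0.56, SE 0.12, adjusted p = 0.00513). In AI against VEH CL the difference of -0.34 did not pass (adjusted p = 0.066), nor did that of -0.22 in AI+E2 against AI CL (95% interval -0.47 to 0.04).

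Cnn1 encodes calponin, which binds actin and inhibits the myosin ATPase. It had 7.41, 7.32 and 7.43 in AI+E2, 7.47, 7.52 and 7.15 in AI, 7.71, 8.0 and 7.50 in VEH and 7.32, 7.18 and 7.29 in Day 12 CL. The VEH arrays were above all of AI+E2 and of Day 12, and the lowest of them lay under the highest AI array. Cnn1 rose in VEH against Day 12 CL (0.47, SE 0.11, adjusted p = 0.0136) and fell in AI against VEH CL (-0.35, SE 0.11, adjusted p = 0.0419). Both calls rested on VEH replicate 2: without it the rise was 0.34 (adjusted p = 0.0606) and the fall -0.22 (adjusted p = 0.186). The fall was also lost without AI replicate 3, at -0.24 (adjusted p = 0.195), and without each of 7 other arrays, with the highest of these adjusted p at 0.0868. The difference was -0.35 in AI+E2 against VEH (adjusted p = 0.0548) and 0.00 in AI+E2 against AI CL (95% interval -0.23 to 0.24).

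Des encodes desmin, the intermediate filament of muscle, which is also a pericyte marker. Des gave 7.63, 7.38 and 7.54 in AI+E2, 7.57, 7.52 and 7.28 in AI, 7.74, 7.91 and 7.63 in VEH and 7.10, 7.34 and 6.94 in Day 12 CL. VEH lay above all AI and Day 12 arrays, and the highest AI+E2 array met the lowest of VEH within rounding. Des rose in VEH against Day 12 CL (0.63, SE 0.11, adjusted p = 0.00121). It differed by -0.30 in AI against VEH (95% interval -0.53 to -0.08, adjusted p = 0.0664) and by 0.06 in AI+E2 against AI CL (-0.17 to 0.29).

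Myl9 encodes the regulatory light chain of smooth muscle myosin, whose phosphorylation starts contraction. It had 8.76, 8.62 and 8.73 in AI+E2, 8.61, 8.65 and 8.58 in AI, 8.83, 9.25 and 8.76 in VEH and 8.54, 8.12 and 8.41 in Day 12 CL. The AI arrays lay close together between those of VEH and of Day 12, with no overlap on either side. Myl9 rose in VEH against Day 12 CL (0.59, SE 0.12, adjusted p = 0.00371), and in AI against VEH CL the -0.33 did not pass (95% interval -0.58 to -0.09, adjusted p = 0.0641). It differed by 0.09 in AI+E2 against AI CL (-0.16 to 0.34).

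Myh11, the smooth muscle myosin heavy chain and the most specific marker of the differentiated cell, did not pass the test in any of the 6 comparisons. The levels were 8.66, 8.63 and 8.69 in AI+E2, 8.67, 8.73 and 8.43 in AI, 8.49, 9.22 and 8.58 in VEH and 8.29, 8.39 and 8.53 in Day 12 CL. One VEH array stood far above the rest, and the other 2 lay within the range of the remaining groups. The log2 difference was 0.36 in VEH against Day 12 (95% interval 0.05 to 0.66, adjusted p = 0.142), -0.15 in AI against VEH (-0.46 to 0.15) and 0.06 in AI+E2 against AI CL (-0.25 to 0.36). Without VEH replicate 2 the difference in AI against VEH CL changed sign, to 0.07.

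Among the pericyte genes, Pdgfrb encodes the PDGF-B receptor through which pericytes are recruited. Pdgfrb had 9.03, 9.08 and 9.16 in AI+E2, 9.11, 9.16 and 8.93 in AI, 9.41, 9.42 and 9.36 in VEH and 9.05, 9.07 and 9.10 in Day 12 CL. All 3 VEH arrays lay above the other 9, which overlapped each other. Pdgfrb had the smallest spread within groups of the 10 genes, a residual SD of 0.071, smaller than which 27.4% of all genes were. It rose in VEH against Day 12 CL (0.33, SE 0.064, adjusted p = 0.00409) and fell in AI against VEH CL (-0.33, SE 0.064, adjusted p = 0.0019). It also fell in AI+E2 against VEH CL (-0.31, SE 0.064, adjusted p = 0.00457). Between AI+E2 and AI CL it differed by 0.02 (95% interval -0.11 to 0.16).

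Mcam encodes CD146, an adhesion molecule of pericytes, smooth muscle and endothelium. It had 8.53, 8.5 and 8.56 in AI+E2, 8.69, 8.86 and 8.44 in AI, 9.35, 9.11 and 9.03 in VEH and 8.39, 8.62 and 8.5 in Day 12 CL. As with Pdgfrb, the 3 VEH arrays lay above the other 9. Mcam rose in VEH against Day 12 CL (0.66, SE 0.1, adjusted p = 0.000528). It had the largest falls of the set, -0.50 in AI against VEH (SE 0.1, adjusted p = 0.00233) and -0.63 in AI+E2 against VEH CL (SE 0.1, adjusted p = 0.000501). The difference of -0.13 in AI+E2 against AI CL did not pass (95% interval -0.35 to 0.08).

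Rgs5 encodes a regulator of G protein signalling that is a widely used pericyte marker. Its arrays gave 10.48, 10.42 and 10.58 in AI+E2, 10.56, 10.70 and 10.58 in AI, 10.57, 10.73 and 10.75 in VEH and 10.32, 10.70 and 10.48 in Day 12 CL. Every pair of groups overlapped. Rgs5 did not pass the test in any comparison, with 0.18 in VEH against Day 12 (95% interval 0.00 to 0.37), -0.07 in AI against VEH (-0.26 to 0.12) and -0.12 in AI+E2 against AI CL (-0.31 to 0.07). Without Day 12 replicate 2 it passed in VEH against Day 12 CL, at 0.28 (adjusted p = 0.0361).

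Cspg4 encodes the proteoglycan NG2 of pericytes. Its values were 7.06, 7.22 and 7.07 in AI+E2, 7.14, 7.07 and 7.13 in AI, 7.55, 7.39 and 7.10 in VEH and 7.03, 7.22 and 7.05 in Day 12 CL. A pair of VEH arrays lay above all others, and the third lay among them. Cspg4 did not pass the test in any comparison, with 0.24 in VEH against Day 12 (95% interval 0.04 to 0.44), -0.23 in AI against VEH (-0.43 to -0.03) and 0.00 in AI+E2 against AI CL (-0.20 to 0.20). With VEH replicate 3 left out it passed in VEH against Day 12 CL, at 0.37 (adjusted p = 0.00976). It then also passed in AI against VEH (-0.36, adjusted p = 0.00653) and AI+E2 against VEH CL (-0.36, adjusted p = 0.0088).

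**Figure D2:**
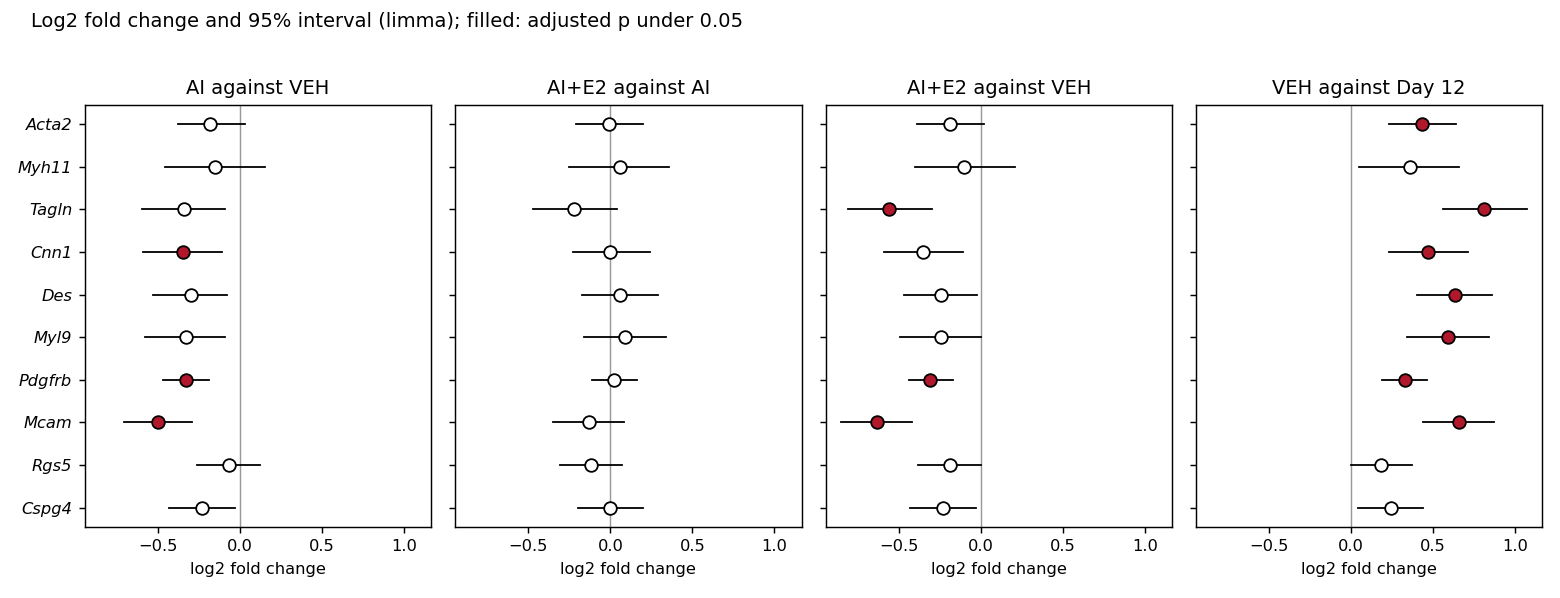
Log2 fold change (horizontal axis) of each gene in 4 comparisons, with its 95% interval. Filled points have an adjusted p under 0.05. The points of VEH against Day 12 all lie to the right of 0, those of AI against VEH and AI+E2 against VEH to the left, and the intervals of AI+E2 against AI all include 0.

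Set against the start of treatment, the 2 classes are described apart. In AI+E2 against Day 12 CL the 6 contractile genes were non-overlapping and higher, with a median of 0.26, and the 4 pericyte genes all overlapped, with a median of 0.01. Of all genes 14% were non-overlapping and higher in that comparison. Des alone rose (0.39, SE 0.11, adjusted p = 0.0264), where 7.52% of all genes rose, and 0 of 10 fell, where 4.58% of all genes fell. In AI against Day 12 CL Tagln alone rose (0.47, SE 0.12, adjusted p = 0.0241), where 3.3% of all genes rose, and 0 of 10 fell, where 4.27% of all genes fell. The median there was 0.26 for the contractile and 0.06 for the pericyte genes. Of the 6 contractile genes 3 were non-overlapping and higher there, as were 9.22% of all genes, and of the 4 pericyte genes 0. Larger lists of further genes of each class, described below, had closer medians. In AI+E2 against Day 12 CL the 22 contractile genes had a median of 0.06, with 6 non-overlapping and higher. The 13 pericyte genes had 0.12, with 3. In AI against Day 12 CL the medians were 0.05, with 6, and 0.02, with 0. Whether the classes differ was not tested. The Tagln call was lost without Day 12 replicate 1, Day 12 replicate 2, AI replicate 1 or AI replicate 2 (adjusted p = 0.0718 to 0.115). The Des call was lost without Day 12 replicate 1, Day 12 replicate 3, AI+E2 replicate 1 or AI+E2 replicate 3 (adjusted p = 0.0781 to 0.124).

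The counts in the other comparisons moved with single arrays too. In AI against VEH CL, Mcam and Pdgfrb fell whichever array was left out, and the 3 falls became 7 without VEH replicate 3, 5 without Day 12 replicate 2 and 2 without any 1 of 8 other arrays (Day 12 replicate 1, VEH replicate 1 or 2, AI replicate 1 or 3, or any AI+E2 array). In AI+E2 against VEH CL they became 5 without VEH replicate 3. In VEH against Day 12 CL between 6 and 8 genes rose with any 1 array left out. The share of all genes called with an array left out was not counted, here or for the other lists.

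Single VEH and AI animals stood apart from the others of their group. VEH replicate 2 was the highest of the VEH arrays in 6 of 6 contractile genes and in 1 of 4 pericyte genes, where it was the highest for 31.3% of all genes. Its mean deviation from the VEH mean was 0.28 over the contractile genes and 0.02 over the pericyte genes. VEH replicate 3 was the lowest in 8 of the 10 (38.4% of all genes). AI replicate 3 was the lowest of the AI arrays in 8 of the 10 and in 6 of 6 contractile genes, where it was the lowest for 40.6% of all genes. Its mean deviation was -0.16 over the contractile genes, with -0.03 for Myl9, and -0.09 over the pericyte genes, with -0.22 for Mcam and -0.13 for Pdgfrb. The mean of the endothelial markers, each centred on its own mean, was -0.24 on this array, against -0.07 and -0.04 on the other AI arrays. For the fibroblast and matrix genes the same mean was -0.08 on it, against 0.11 and 0.13. On VEH replicate 2 the fibroblast and matrix mean was 0.21, against 0.01 and -0.07 on the other VEH arrays. The endothelial mean there was 0.23, against 0.23 and 0.25. In Day 12 replicate 2 Des lay 0.21 above its group mean, and the other contractile genes lay below theirs, from -0.23 for Myl9 to -0.01 for Myh11. In Day 12 replicate 3 Des lay at -0.19 and the others from 0.02 for Cnn1 to 0.13 for Myh11 and Tagln. Day 12 replicate 1 was the lowest of its group in 4 of 4 pericyte genes (32.5% of all genes), with a mean deviation of -0.10 over them. AI replicate 3 also had the highest Inha (10.62) and Fshr (7.07) of the AI arrays. VEH replicate 3 had the lowest of the VEH arrays (8.65 and 5.64). What set these animals apart was not tested. Over the 12 arrays the correlation of a gene with the mean of the other 9 was between 0.73 and 0.95 for the contractile genes. It was 0.84 for Pdgfrb, 0.82 for Mcam, 0.61 for Cspg4 and 0.51 for Rgs5. Once the group means were removed, the value among the contractile genes was 0.93 for Cnn1, 0.91 for Acta2, 0.87 for Tagln, 0.77 for Myh11, 0.58 for Des and 0.48 for Myl9. Among the pericyte genes it was 0.64 for Pdgfrb, 0.41 for Mcam, 0.19 for Cspg4 and 0.09 for Rgs5, so that the 2 classes overlapped. These correlations describe 12 arrays that share 4 groups.

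**Figure D3:**
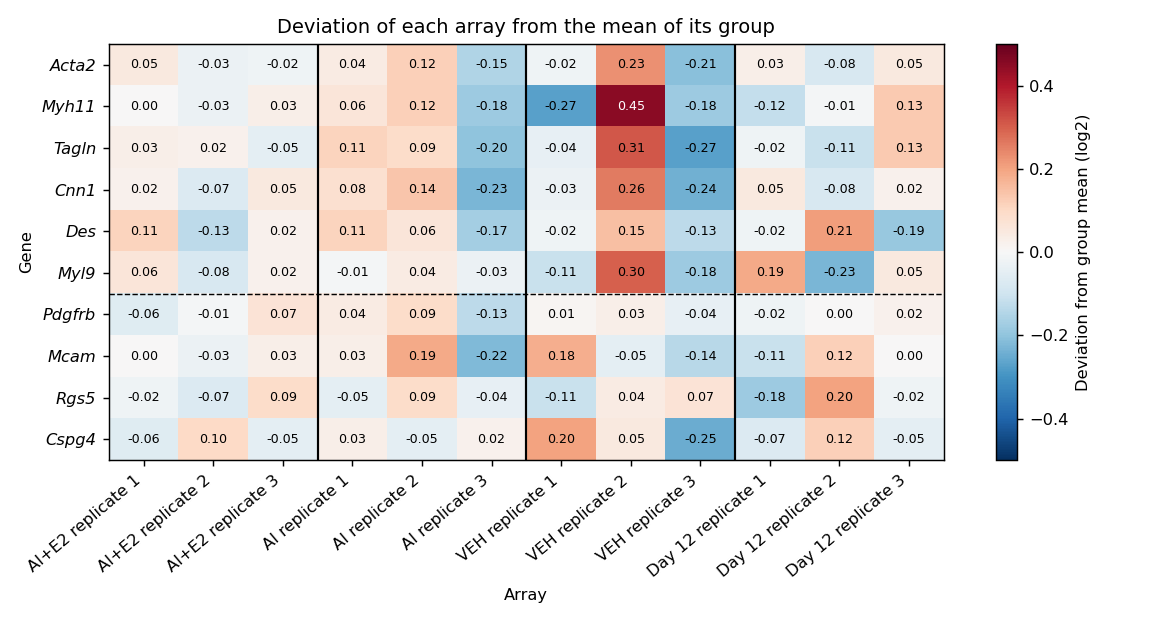
Deviation of each array from the mean of its group (log2, colour and printed value), with the 10 genes as rows, contractile above the dashed line, and the arrays as columns. The column of VEH replicate 2 is red in all 6 contractile rows, with 0.45 in Myh11, and the column of AI replicate 3 is blue in them.

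The genes outside the set whose levels ran most like its mean over the 12 arrays were Actg2 (r = 0.977), Slc29a1 (0.969), H2az1 (0.966), Tinagl1 (0.961) and Tmem184b (0.956). Actg2 encodes the gamma-actin of visceral smooth muscle. Its values were 7.97, 7.94 and 7.93 in AI+E2, 7.97, 8.06 and 7.81 in AI, 8.74, 9.09 and 8.20 in VEH and 7.61, 7.59 and 7.52 in Day 12 CL. VEH lay above all other arrays, and its spread of 0.44 (SD) was the widest of the 4 groups. Actg2 rose by 1.10 (SE 0.15, adjusted p = 0.000184) in VEH against Day 12 CL and fell by 0.73 in AI against VEH CL (adjusted p = 0.00262). Actin genes have near-identical coding sequences, and how far a probe set of one responds to another was not tested.

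The further contractile apparatus, 22 measured of 28 listed genes, was called in the same directions as the set in VEH against Day 12 and in AI against VEH CL. In VEH against Day 12 CL 11 rose and 0 fell (median 0.30), and in AI against VEH CL 8 fell and 0 rose (median -0.23). AI+E2 against AI CL gave 2 rises and 1 fall (median 0.00), and in AI+E2 against VEH CL 10 fell and 1 rose (median -0.27). Smtn, encoding smoothelin of contractile smooth muscle, rose by 0.48 in VEH against Day 12 (adjusted p = 0.00017) and fell by 0.40 in AI against VEH CL (adjusted p = 0.000332). Between AI+E2 and AI CL it differed by -0.01 (95% interval -0.14 to 0.13). Myh10, a non-muscle myosin heavy chain, fell in AI against VEH CL (-0.51, adjusted p = 0.000506). Vim, the intermediate filament vimentin of mesenchymal and endothelial cells, was among the 2 that rose when E2 was given back. It had 11.88, 11.81 and 11.80 in AI+E2, 11.30, 11.28 and 11.32 in AI, 11.85, 12.04 and 11.85 in VEH and 11.16, 11.42 and 11.21 in Day 12 CL. The AI arrays lay below those of AI+E2 and VEH with no overlap, and AI+E2 overlapped VEH. Vim fell in AI against VEH (-0.61, adjusted p = 2.38e-05) and rose in AI+E2 against AI CL (0.53, adjusted p = 0.000143). The 8 falls in AI against VEH became 5 without AI replicate 3, and the 11 rises in VEH against Day 12 became 7 without Day 12 replicate 1 or VEH replicate 2. The 10 falls in AI+E2 against VEH became 6 without VEH replicate 2 and 5 without AI+E2 replicate 2, and the 1 rise was lost without VEH replicate 3, AI+E2 replicate 1 or AI+E2 replicate 3. The 2 rises in AI+E2 against AI became 1 without AI replicate 3 or any 1 AI+E2 array, and 1 gene rose in AI against VEH without VEH replicate 2.

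Of SRF, myocardin and their partners, 7 measured of 10 listed, 0 rose and 0 fell in VEH against Day 12 CL (median -0.10). In AI against VEH CL 2 rose and 1 fell (median 0.11), in AI+E2 against AI CL 1 rose and 1 fell (median -0.03), and in AI+E2 against VEH CL 0 rose and 0 fell (median 0.08). Srf, the transcription factor itself, differed by -0.13 in VEH against Day 12 (95% interval -0.28 to 0.03) and by 0.13 in AI against VEH CL (-0.02 to 0.28). Myocd, encoding myocardin, differed by -0.02 (-0.28 to 0.25) and 0.01 (-0.25 to 0.28) in the same comparisons. Elk1, which competes with myocardin for SRF, rose in AI against VEH CL (0.31, adjusted p = 0.00564), as did Mef2d (0.27, adjusted p = 0.0231). Tead1, a factor that binds the TEAD core, fell in AI against VEH (-0.31, adjusted p = 0.00554) and rose in AI+E2 against AI CL (0.43, adjusted p = 0.000564).

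Further pericyte genes, 13 measured of 18 listed, gave 7 rises and 0 falls in VEH against Day 12 (median 0.36) and 8 falls and 0 rises in AI against VEH CL (median -0.36). When E2 was given back, 5 rose and 0 fell against AI CL (median 0.12). In AI+E2 against VEH CL 4 fell and 0 rose (median -0.19), with between 2 and 5 falls when 1 array was left out. Abcc9 encodes the sulfonylurea receptor subunit of the potassium channel of pericytes. It had 8.99, 8.99 and 9.02 in AI+E2, 8.75, 8.86 and 8.61 in AI, 10.20, 10.35 and 10.20 in VEH and 8.85, 9.09 and 9.02 in Day 12 CL. VEH stood above all other arrays by more than the spread within any group. Abcc9 rose in VEH against Day 12 CL (1.26, SE 0.076, adjusted p = 4.59e-08) and fell in AI against VEH CL (-1.51, SE 0.076, adjusted p = 2.34e-09). It rose by 0.26 in AI+E2 against AI CL (adjusted p = 0.0344) and was still lower than in VEH CL (-1.25, adjusted p = 4.28e-08). Gucy1a1, a subunit of the receptor of nitric oxide, fell in AI against VEH (-0.58, adjusted p = 6.69e-06) and rose in AI+E2 against AI CL (0.39, adjusted p = 0.000486). Cox4i2, a respiratory chain subunit that marks pericytes in mouse and human, fell in AI against VEH CL (-0.52, adjusted p = 4.66e-05) and differed by -0.04 in AI+E2 against AI CL (95% interval -0.19 to 0.10). The 8 falls became 4 without AI replicate 3. The 5 rises became 3 without Day 12 replicate 1 and 1 without AI replicate 1 or 3 or AI+E2 replicate 1 or 3.

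The ligands of the PDGF receptors were measured in full. Pdgfb, the ligand that endothelium presents to pericytes, had 7.54, 7.58 and 7.54 in AI+E2, 7.63, 7.71 and 7.60 in AI, 8.20, 8.03 and 7.90 in VEH and 7.51, 7.61 and 7.47 in Day 12 CL. VEH stood above all other arrays, as it did for Pdgfrb. Pdgfb rose in VEH against Day 12 (0.52, SE 0.072, adjusted p = 0.000257) and fell in AI against VEH CL (-0.40, SE 0.072, adjusted p = 0.000943). It differed by -0.09 in AI+E2 against AI CL (95% interval -0.24 to 0.06). Pdgfd, the other ligand of PDGFRB, had 7.61, 7.44 and 7.46 in AI+E2, 6.97, 7.03 and 7.03 in AI, 8.40, 8.34 and 8.42 in VEH and 7.70, 7.95 and 7.92 in Day 12 CL. Each of the 4 groups was apart from the others. Pdgfd fell by 1.37 in AI against VEH CL (SE 0.071, adjusted p = 2.88e-09), rose by 0.49 in AI+E2 against AI CL (adjusted p = 0.000207) and remained 0.88 lower than in VEH CL (log2 difference -0.88, adjusted p = 7.98e-07). Pdgfa and Pdgfc did not pass in AI against VEH CL (-0.12 and -0.19). Pdgfra, the receptor of fibroblasts and other mesenchymal cells, differed by 0.00 there (95% interval -0.18 to 0.18) and rose in AI+E2 against AI CL (0.27, adjusted p = 0.0481).

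Of 15 measured of 16 listed genes of the NOTCH and TGF-beta signals to mural cells, 4 rose and 0 fell in VEH against Day 12 CL (median 0.19). In AI against VEH CL 7 fell and 0 rose (median -0.22), and in AI+E2 against AI CL 2 rose and 0 fell (median 0.07). In AI+E2 against VEH CL 5 fell and 0 rose (median -0.11). Notch3, the NOTCH receptor of mural cells, rose in VEH against Day 12 (0.34, adjusted p = 0.0106) and fell in AI against VEH CL (-0.34, adjusted p = 0.00574). It differed by -0.03 in AI+E2 against AI CL (95% interval -0.20 to 0.13). Eng (-0.50), Acvrl1 (-0.40) and Smad3 (-0.31), a coreceptor, a receptor and a mediator of the TGF-beta family, fell in AI against VEH CL, with adjusted p between 8.91e-05 and 0.00184. The 7 falls became 4 without VEH replicate 1, AI replicate 1 or AI replicate 3, and 1 gene rose there without VEH replicate 3. The 2 rises became 1 without AI replicate 1, AI+E2 replicate 1 or AI+E2 replicate 3.

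Markers of the endothelium were called in the same directions as the set in VEH against Day 12, AI against VEH and AI+E2 against VEH CL. Of 11 measured of 12 listed, 8 rose and 0 fell in VEH against Day 12 CL (median 0.38), and 8 fell and 0 rose in AI against VEH CL (median -0.43). With E2 given back, 1 rose and 0 fell against AI CL (median 0.10), and in AI+E2 against VEH CL 5 fell and 0 rose (median -0.23). The 8 rises became 5 without Day 12 replicate 1. The 1 rise in AI+E2 against AI was lost without Day 12 replicate 3, AI replicate 1, AI replicate 3 or any 1 AI+E2 array, and became 2 without AI replicate 2. Tek, the angiopoietin receptor, fell in AI against VEH CL (-0.62, adjusted p = 0.000108), as did Tie1 (-0.52, adjusted p = 0.000385) and Egfl7 (-0.51, adjusted p = 0.000781). The mean of the endothelial genes, each centred on its own mean, ranged from -0.08 to -0.02 in AI+E2, -0.24 to -0.04 in AI, 0.23 to 0.25 in VEH and -0.15 to -0.01 in Day 12 CL. The same mean over the 10 genes ranged from -0.07 to -0.02 in AI+E2, -0.15 to 0.07 in AI, 0.11 to 0.44 in VEH and -0.24 to -0.19 in Day 12 CL. The VEH arrays were the highest in both, and they lay closer together in the endothelial genes than in the 10 genes. The part of the endothelium in the result was not tested.

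Markers of other cell types were counted in the same way, first in AI against VEH CL. Of 12 fibroblast and matrix genes 1 fell and 2 rose (median -0.06), with Dcn, the matrix proteoglycan decorin, higher (0.50, adjusted p = 0.00289) and Fbn1, fibrillin, lower (-0.38, adjusted p = 0.023). Of 10 macrophage genes 4 rose and 0 fell (median 0.25), among them Cd68 (0.32, adjusted p = 0.00872). Of 7 luteal genes 3 rose and 1 fell (median 0.21), with the cholesterol receptor Scarb1 higher (0.30, adjusted p = 0.00177) and the prolactin receptor Prlr lower (-0.31, adjusted p = 0.00357). In VEH against Day 12 CL 4 of the 12 fibroblast and matrix genes rose and 1 fell (median 0.17), with Fbn1 (0.42, adjusted p = 0.0193) and the collagen gene Col3a1 (0.35, adjusted p = 0.0192) higher and Dcn lower (-0.41, adjusted p = 0.0178). In AI+E2 against VEH CL 3 rose and 3 fell (median -0.13), and Col3a1 fell (-0.34, adjusted p = 0.0173). Of the macrophage and luteal genes 0 rose and 0 fell in VEH against Day 12 CL. Of 3 red blood cell genes measured of 5 listed, 0 rose and 0 fell in AI against VEH CL (median -0.24), 1 fell in VEH against Day 12 (median 0.21), 1 fell in AI+E2 against AI (median -0.25) and 2 fell in AI+E2 against VEH CL (median -0.49). Hbb, a beta-globin gene, fell in AI+E2 against VEH (-1.33, adjusted p = 0.000535) and differed by -0.29 in AI against VEH CL (adjusted p = 0.429). Of 7 follicle and oviduct genes measured of 8 listed, 1 rose and 0 fell in AI against VEH CL (median 0.13). In VEH against Day 12 CL 0 rose and 2 fell (median -0.10), and in AI+E2 against VEH CL 1 rose and 0 fell (median 0.20). The part of matrix cells, of blood or of follicles in the result was not tested. Of 8 skeletal muscle genes 0 rose and 0 fell in any of the 6 comparisons.

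**Figure D4:**
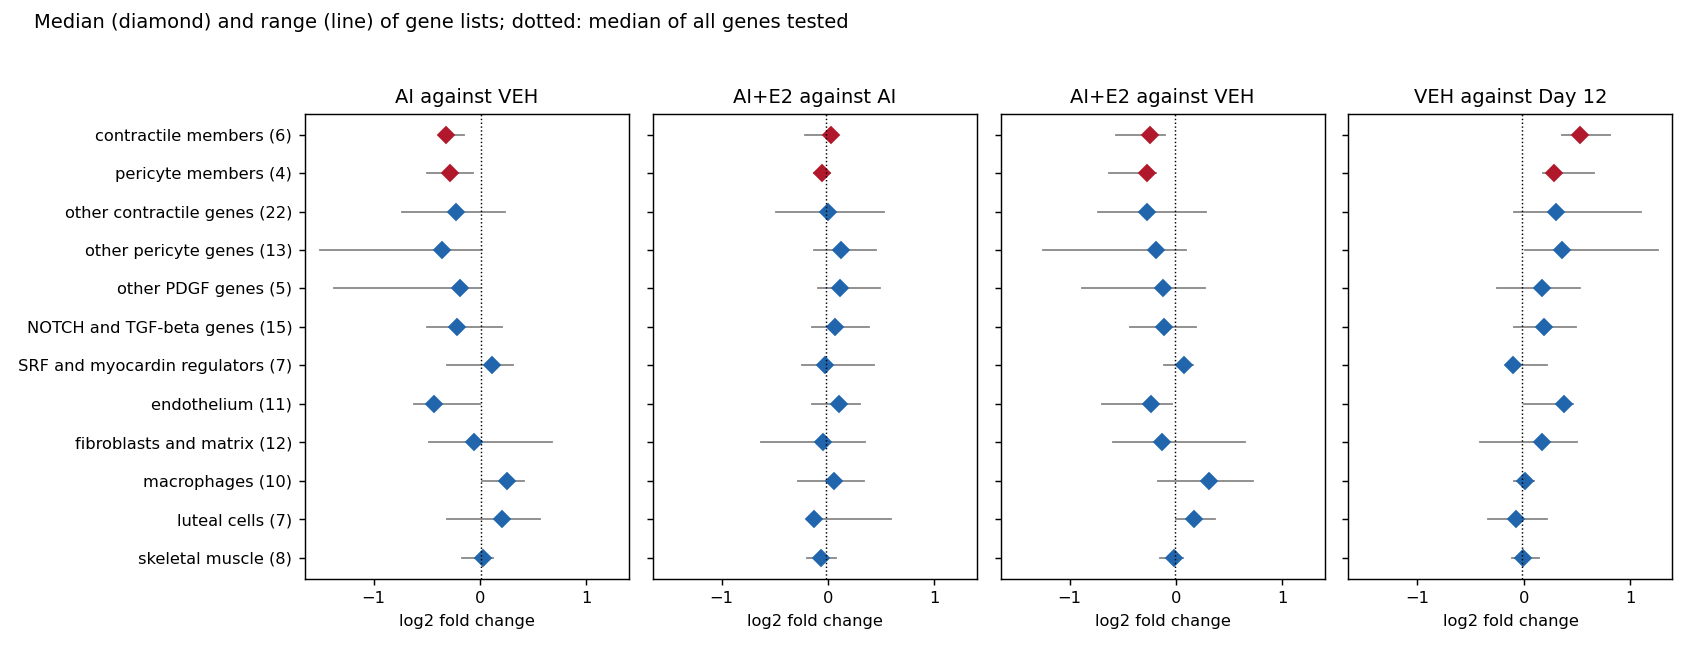
Median log2 fold change (diamond) and range (line) of the genes of each list in 4 comparisons, with the number of genes measured in brackets. The set is in red, the other lists in blue, and the dotted line is the median of all genes. The contractile, pericyte, PDGF, NOTCH and TGF-beta and endothelial lists lie to the right in VEH against Day 12 and to the left in AI against VEH, and macrophage and luteal lists lie to the right in AI against VEH.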

How the data were processed

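RNA from CL of 12 rats, 3 in each group, was read on 1 array per rat (Affymetrix Rat Gene 1.0 ST). The authors normalized them by RMA in R 2.12.2, per the submitters' processing notes, and deposited log2 values of 29214 probe sets. RMA equalises the distributions of the arrays and can compress large differences. Probe sets were named through the platform annotation (15310 with 1 symbol, 323 with several and 13581 with none, the last 2 kinds left out). For the 527 genes with several probe sets, that of highest mean was used.

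The 14506 genes were fitted in limma 3.58.1 (R 4.3.3) with 4 group means over all 12 arrays, 8 residual and 6.66 prior degrees of freedom. Figures were drawn with matplotlib 3.10.9 in Python 3.11.15. Tests were two-sided. The fit was run on simulated data in which the noise of each gene was independent. That run does not cover noise shared between genes, and its outcome is not given here. The p-values measure the spread between these animals. The labels do not say that the replicate numbers pair the animals, and the fit did not pair them.

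The 10 genes and all lists were chosen with earlier results of these data known. All 10 were named. From each other list up to 3 genes with the smallest p in AI against VEH and in VEH against Day 12 were named, with all PDGF genes and the 5 genes most alike in level. Srf, Myocd and Hbb were named after their values were seen. Alternatives were the methods' t-test, a fit on the compared groups, a replicate block, a prior variance with a trend, the mean of probe sets, filters on dim genes, repeated quantile normalization, all probe sets, and each array left out.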

Additional observations from a re-analysis of the deposited data

How the results depend on the processing

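Precision was limited by having 3 arrays in a group, and a log2 difference of about 0.2 was near the distance from a fold change to the end of its 95% interval for many of the 10 genes. Of 1260 alternative values of single genes, 1163 kept direction and call, 31 gained and 35 lost the call, and 31 changed sign, of which 0 had passed the test in the first place. Under the methods' t-test with Benjamini-Hochberg adjustment, 0 genes of the set fell in AI against VEH, 1 fell in AI+E2 against VEH, 1 rose in VEH against Day 12, 0 rose in AI against Day 12 and 0 rose in AI+E2 against Day 12 CL. Under the same test the rises in VEH against Day 12 were 0 for the contractile apparatus (limma 11), 1 for pericyte genes (7), 0 for NOTCH and TGF-beta genes (4) and 0 for endothelium (8). The falls in AI against VEH were 4 (limma 8), 3 (8), 1 (7) and 0 (8) for these lists in the same order, and those in AI+E2 against VEH were 2 (limma 10), 2 (4), 1 (5) and 5 (5). The rises in AI+E2 against AI were 1 (limma 2), 1 (5), 0 (2) and 0 (1). Over all genes that test called 758 in AI+E2 against AI (limma 1854), 663 in AI against VEH (limma 2458), 564 in AI+E2 against VEH (limma 1887), 57 in VEH against Day 12 (limma 1471), 45 in AI against Day 12 (limma 1098) and 362 in AI+E2 against Day 12 CL (limma 1755).

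Without the 25% of genes of lowest signal 5 fell in AI against VEH, and without the lowest 50% 6 fell there and 2 rose in AI+E2 against Day 12 CL. Over all probe sets 0 rose in AI against Day 12 and 0 in AI+E2 against Day 12 CL. In the fit on the compared groups alone 5 rose in AI+E2 against Day 12 CL. With 1 array left out the falls ranged from 2 to 7 in AI against VEH and from 3 to 5 in AI+E2 against VEH, and the rises from 0 to 2 in AI against Day 12 and from 0 to 2 in AI+E2 against Day 12 CL. The share of all genes called under these settings was not counted. Whether the set moved more than all genes did is therefore not known. Cnn1 in AI against VEH CL lost its call in 12 of 21 alternatives, among them the fit on the compared groups (adjusted p = 0.0968) and all probe sets (0.085).

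With quantile normalization repeated, Pdgfrb changed sign in AI+E2 against AI (-0.05), AI against Day 12 (0.02) and AI+E2 against Day 12 (-0.03), and Mcam in AI+E2 against Day 12 CL (-0.02). With 1 array left out the sign changed for Myh11 in AI against VEH (-0.29 to 0.07) and AI+E2 against VEH (-0.23 to 0.13). In AI+E2 against AI it did so for Acta2 (-0.08 to 0.05), Myh11 (-0.03 to 0.12), Cnn1 (-0.11 to 0.08), Des (-0.03 to 0.13), Pdgfrb (-0.04 to 0.07) and Cspg4 (-0.05 to 0.03). In AI against Day 12 it did so for Pdgfrb (-0.05 to 0.06) and Cspg4 (-0.02 to 0.07), and in AI+E2 against Day 12 for Rgs5 (-0.10 to 0.09), Pdgfrb (-0.02 to 0.05), Mcam (-0.03 to 0.08) and Cspg4 (-0.04 to 0.07).

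Deviations of animals with the same replicate number correlated between -0.49 and 0.34, over 0.1 in 4 of 18 pairs. With the replicate number as a block, 4 genes of the set fell in AI against VEH (Des added, adjusted p = 0.0447), and the other counts were the same. Over all genes the block gave 2226 calls in AI against VEH and 1265 in VEH against Day 12 CL.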
